A study of Mus musculus with 9 samples.

Results

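Bdnf, Ntrk2, Ntrk3, Ngfr and Sort1 were followed across 3 cultures of embryonic mouse cortex. They encode the neurotrophin BDNF, the receptors TrkB, TrkC and p75, and sortilin. The members were chosen by name, with earlier results of these data known. They are probe sets whose only gene symbol in the platform annotation is one of these 5 genes. The probe set of the highest mean was kept for each gene. All 5 were found, among 22180 genes with a symbol of their own. The cells came from wild-type CD1 mice and no group carried a transgene or a treatment. The neurons were cortical neurons of embryonic day 16, grown for 5 days. The precursors were cortical precursors of embryonic day 13, grown for 1 day. For the co-culture, such precursors were put onto neurons that had grown for 4 days, and both were grown together for 1 day more. Each culture was measured on 3 arrays that the labels call biological replicates, and the sources used here do not say whether a replicate pools embryos. Cell type, embryonic age and days of growth all differ between the neuron and the precursor arrays and cannot be told apart. The study concerns growth factor signals between these cells, in which BDNF and its receptors are one ligand and receptor group.

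Neurotrophins are secreted as precursor proteins and cut to the mature ligand. Mature BDNF binds TrkB, a receptor tyrosine kinase that signals through Shc and Frs adaptors to MAP kinases, through Gab adaptors to PI3 kinase and through phospholipase C gamma to calcium and protein kinase C. TrkC is the receptor of neurotrophin 3. p75 binds all neurotrophins and, together with sortilin, binds the uncut precursors. In the cortex BDNF is made by excitatory neurons in an activity-dependent way, and TrkB is made by neurons as a full-length kinase and by glial cells largely as a truncated form. A gene-level probe set gives 1 value per gene, so forms of TrkB or TrkC were not separated here.

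The mouse Bdnf gene has several promoters, each with its own first exon spliced to a shared coding exon, and the single Bdnf level below sums over them. RefSeq (GRCm38.p6) promoter windows matched 3 of the 5 genes, with 7 windows for Bdnf and 1 each for Ntrk2 and Ngfr. The 250 bases before each start were searched on both strands for TGACGTCA, the binding site of the transcription factor CREB, for its variant TCACGTCA, and for the E-box CACGTG. These motifs were searched because regulators of Bdnf transcription are among the genes described below. TCACGTCA was found in 1 of the 7 Bdnf windows, 38 bases before the start, and in 0.350% of 32851 windows of all genes. TGACGTCA was in 1.55% and CACGTG in 6.02% of all windows, and neither was in a window of Bdnf, Ntrk2 or Ngfr. The window with the variant lies on the plus strand at chr2:109692186-109692435, between other Bdnf starts, and is shown as the Bdnf window that holds one of the letters searched, which are in capitals. A match of letters is a description and shows no binding.
Bdnf window 3: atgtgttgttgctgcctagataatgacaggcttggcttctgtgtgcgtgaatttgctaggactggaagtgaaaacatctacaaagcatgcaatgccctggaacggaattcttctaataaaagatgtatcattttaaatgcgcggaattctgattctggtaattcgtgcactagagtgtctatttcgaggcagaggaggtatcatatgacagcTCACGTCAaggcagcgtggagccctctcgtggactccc

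Levels are log2 values made by the authors with RMA, and a difference of 1 is a 2-fold change. One limma model was fitted to all 9 arrays, and a gene was called where its adjusted p (Benjamini-Hochberg) was under 0.05. Tested were the 13012 genes above the array median in at least 3 arrays. Of the 5 genes, 4 were among them and lay above the median in all 9 arrays. Bdnf lay below the array median in all 9 arrays, by 0.022 to 0.67, and was tested in the fit of all 22180 genes, without the filter on dim genes. In bulk RNA, fewer cells of a type and less RNA per cell cannot be told apart. The labels say that replicates are biological, but not from which litters or days, so the p-values measure the spread between these arrays. Arrays of 1 group correlated at 0.988 to 0.994 over all probe sets, a range that does not show whether 1 array stood apart. Neuron replicate 2 was the lowest neuron array for Bdnf, Ntrk3 and Ngfr, but not for Ntrk2 and Sort1. The labelled cell types were checked against marker genes. All 12 precursor markers were lower in neurons (median log2 difference -1.88). All 11 measured markers of cortical projection neurons lay above the filter in these cultures, and 6 were higher and 3 (Bcl11b, Slc17a6 and Tbr1, named after their values were seen) lower in neurons. Of tested markers of other cells, neurons had 5 higher and 4 lower of 9 for GABAergic neurons, 0 and 1 of 5 for oligodendrocytes, 1 and 2 of 7 for microglia, 0 and 4 of 4 for endothelial cells, 0 and 1 of 7 for mural and meningeal cells and 0 and 1 of 1 for red blood cells (limma).

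**Figure D1:**
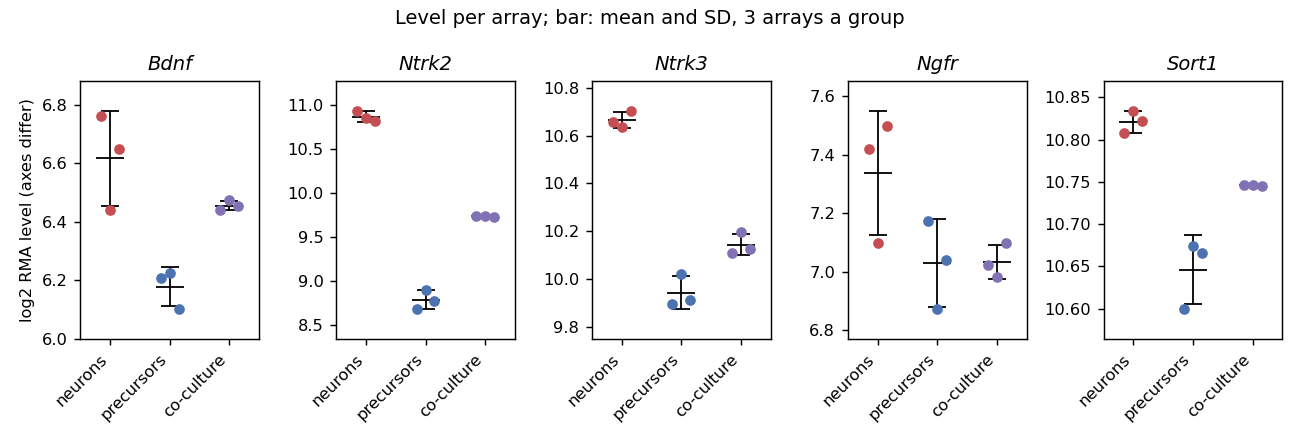
Log2 RMA level (vertical axis, a separate scale for each gene) of Bdnf, Ntrk2, Ntrk3, Ngfr and Sort1 on each of 3 neuron, 3 precursor and 3 co-culture arrays, with the group mean and SD as bars. Ntrk2 forms 3 separate levels, near 10.86, 8.78 and 9.74, while the Ngfr arrays of neurons and precursors overlap.

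The first comparison asked which of the 5 genes differ between neurons and precursors. All 5 were higher in neurons, by 4.23-fold for Ntrk2, 1.65-fold for Ntrk3, 1.35-fold for Bdnf, 1.24-fold for Ngfr and 1.13-fold for Sort1. Such calls are common here: 63.1% of the 13012 genes were called in this comparison, 28% higher and 35.2% lower, and 37.8% of genes in the fit without the filter. The median log2 difference of the 5 genes was 0.44, beside -0.020 over all tested genes. The groups of 3 arrays did not overlap for 4 of the 5 genes, beside 66.4% of tested genes.

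Bdnf, the ligand, was at 6.76, 6.44 and 6.65 on the neuron arrays, at 6.21, 6.23 and 6.10 on the precursor arrays and at 6.44, 6.47 and 6.45 on the co-culture arrays. Every neuron array lay above every precursor array, and neuron replicate 2 was as low as the co-culture. The log2 difference between neurons and precursors was 0.44 (SE 0.079, adjusted p = 0.00130, limma). It was called under each of 16 alternatives, with adjusted p between 1.18e-04 and 0.00744. Because these levels lie at the dim end of the scale, where RMA can compress differences, the fold can be understated, which was not tested.

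Ntf5, which encodes neurotrophin 4, the other ligand of TrkB, was at 5.44 ± 0.058 (SD, n = 3) in neurons, at 5.42 ± 0.14 in precursors and at 5.48 ± 0.17 in co-culture. It was below the filter, and no difference between cultures passed the test (adjusted p = 0.915 for neurons against precursors, limma without the filter, with a 95% interval of the log2 difference from -0.19 to 0.23).

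Ntrk2, the BDNF receptor, had the widest separation. The neuron arrays were at 10.93, 10.84 and 10.82, the precursor arrays at 8.68, 8.90 and 8.77, and the co-culture arrays at 9.74, 9.74 and 9.73. No 2 groups overlapped, and the order was neurons, co-culture, precursors. The log2 difference between neurons and precursors was 2.08 (SE 0.059, adjusted p = 3.60e-09, limma) and was called under all 18 alternatives. Ntrk2 is also a gene of glial cells, so astrocyte markers are given beside it. Against precursors, neurons had 2 of 7 tested astrocyte markers higher, Aldh1l1 and Slc1a2, and 5 lower, beside 28% and 35.2% of all tested genes. The 5 lower ones were Aldoc, Fgfr3, Gja1, Slc1a3 and Sox9, and Gfap, Aqp4, S100b and Gjb6 were below the filter. The summed linear level of the 11 astrocyte markers with a probe set was 2141 to 2390 in neurons, 4959 to 5212 in precursors and 4817 to 4984 in the co-culture. The brightest of them were Aldoc, Sox9 and Slc1a3, all lower in neurons, and all 12 precursor markers were lower there too. Whether this sum came from astrocytes or precursors was not tested. The part of astrocytes in the Ntrk2 result was not tested.

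Ntrk3, the receptor of neurotrophin 3, had neuron arrays at 10.66, 10.64 and 10.70, precursor arrays at 9.89, 10.02 and 9.91 and co-culture arrays at 10.11, 10.20 and 10.13. The groups did not overlap and had the same order as those of Ntrk2. The log2 difference between neurons and precursors was 0.72 (SE 0.049, adjusted p = 8.78e-07, limma), and all 18 alternatives gave a call. The gap of Ntrk2 was thus larger than that of Ntrk3 on the log2 scale, with 95% intervals of 1.95 to 2.21 and 0.61 to 0.83, but the difference between the genes was not tested.

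Ngfr, which encodes p75, had neuron arrays at 7.42, 7.10 and 7.50, precursor arrays at 7.17, 6.87 and 7.04 and co-culture arrays at 7.02, 6.98 and 7.10. Neuron replicate 2 lay below precursor replicate 1, so the groups overlapped. The log2 difference between neurons and precursors was 0.31 (SE 0.11, adjusted p = 0.0284, limma). The call rests on few arrays: it was lost without neuron replicate 1 (adjusted p = 0.0901), neuron replicate 3 (0.103), precursor replicate 2 (0.107) or precursor replicate 3 (0.0613). Adjusted p over 17 alternatives ran from 0.00168 to 0.107. p75 is also made by cells of the neural crest and by subplate neurons. Of 6 measured neural crest markers 5 were below the filter, among them Sox10 and Foxd3, and the summed linear level of the list was 636 to 747 in neurons, 561 to 599 in precursors and 626 to 629 in the co-culture. Egr2, the 1 marker above the filter and also a gene that responds to neurotrophins, was called higher in neurons than in precursors (limma). Among all tested genes 28% were higher. Egr2 had mean levels of 8.19 for neurons, 7.60 for precursors and 7.89 for co-culture. Below the filter, neuron and precursor means were 6.77 and 6.66 for Sox10, 6.66 and 6.65 for Foxd3 and 6.12 and 6.05 for Tfap2b. Erbb3 was at 6.20 and 6.26, and Tfap2a at 5.27 and 5.41. The part of such cells in the Ngfr result was not tested. Of 9 tested markers of subplate and Cajal-Retzius cells 0 were higher and 5 lower in neurons (limma), beside 28% and 35.2% of all tested genes. In the co-culture 1 was lower than in precursors, beside 0.2% of all tested genes. The summed linear level of the 12 measured ones was 3075 to 3265 in neurons, 4258 to 4799 in precursors and 4128 to 4580 in the co-culture.

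Sort1, which encodes sortilin, had neuron arrays at 10.81, 10.83 and 10.82, precursor arrays at 10.60, 10.67 and 10.67 and co-culture arrays at 10.75, 10.75 and 10.74. The 3 groups did not overlap, but they spanned a narrow range. The log2 difference between neurons and precursors was 0.17 (SE 0.040, adjusted p = 0.00325, limma). A second, dimmer Sort1 probe set did not show it, with mean levels of 7.15 on neuron arrays, 7.18 on precursor arrays and 7.06 on co-culture arrays. With both probe sets averaged, the difference was 0.072 (adjusted p = 0.263).

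**Figure D2:**
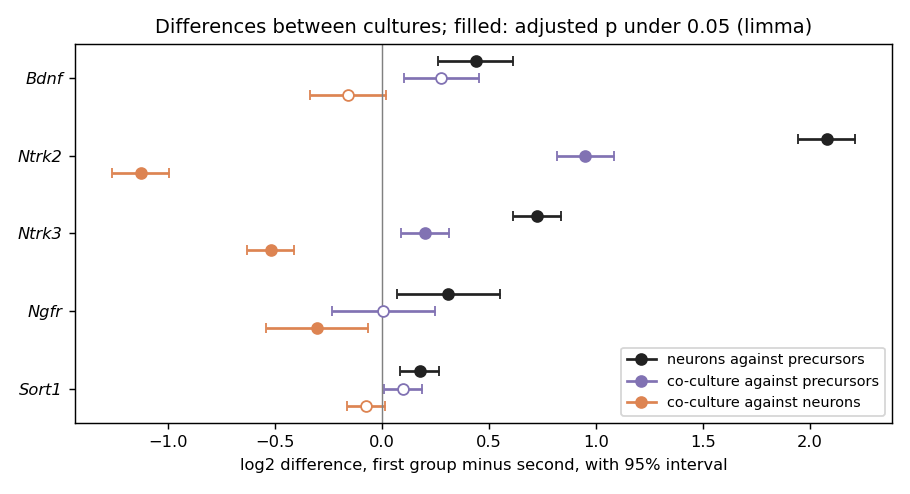
Log2 difference of the first culture minus the second (horizontal axis) with its 95% interval, for the 5 genes in 3 comparisons, where filled points have an adjusted p under 0.05. All 5 black points, neurons against precursors, are filled and right of 0, and Ntrk2 is farthest at 2.08.

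The co-culture was compared with each separate culture to see where receptor and ligand levels lie when both cell types are present. Its RNA holds that of both, and the comparisons share arrays, so they are given side by side and not as independent results. Against precursors, Ntrk2 and Ntrk3 were higher and Bdnf, Ngfr and Sort1 were not called, where 8.42% of tested genes were called (8.22% higher, 0.2% lower), and 3.71% in the fit without the filter. The groups did not overlap for 4 of the 5 genes, beside 24.8% of tested genes. Against neurons, Ntrk2, Ntrk3 and Ngfr were lower and Bdnf and Sort1 were not called, where 60.6% of genes were called (35.7% higher, 24.9% lower), and 37.1% without the filter. Here too the groups did not overlap for 4 of the 5 genes, beside 65.4% of tested genes.

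Ntrk2 was 1.93-fold higher in the co-culture than in precursors (log2 difference 0.95, SE 0.059, adjusted p = 1.03e-05, limma) and 2.19-fold lower than in neurons (-1.13, adjusted p = 2.76e-07). All 18 alternatives kept both calls. Ntrk3 was 1.15-fold higher than in precursors (0.20, SE 0.049, adjusted p = 0.0346) and 1.44-fold lower than in neurons (-0.52, adjusted p = 1.23e-05). The lower level against neurons held under all 18 alternatives. The higher level against precursors did not: adjusted p was 0.0841 without the filter, 0.0501 when neuron replicate 1 was left out, 0.110 for precursor replicate 1 and for precursor replicate 3, 0.0789 for co-culture replicate 1, 0.154 for co-culture replicate 2 and 0.0837 for co-culture replicate 3.

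For Bdnf the co-culture lay between the separate cultures, with a log2 difference of 0.28 from precursors (95% interval 0.10 to 0.45, adjusted p = 0.111, limma without the filter) and -0.16 from neurons (-0.34 to 0.016, adjusted p = 0.145). Without neuron replicate 2 both were called: the adjusted p was 0.0233 against precursors and 0.00998 against neurons, where the difference was -0.25. Against precursors, Bdnf was also called with cyclic loess (adjusted p = 0.0317) and with array weights (0.0239), and against neurons with array weights (0.0280).

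Ngfr differed from precursors by 0.0055 (95% interval -0.23 to 0.25, adjusted p = 0.990, limma) and from neurons by -0.30 (SE 0.11, adjusted p = 0.0321). The lowest neuron array, at 7.0989, and the highest co-culture array, at 7.0986, were nearly equal, though counted above as not overlapping. The second call was lost without the filter (0.0529), without neuron replicate 1 (0.0993) or 3 (0.114) and without co-culture replicate 1 (0.0775) or 2 (0.0912). Sort1 differed by 0.10 from precursors (95% interval 0.011 to 0.19, adjusted p = 0.208) and by -0.075 from neurons (-0.16 to 0.014, adjusted p = 0.128). With cyclic loess the second was -0.17 (adjusted p = 0.00271) and with a mean-dependent prior variance its adjusted p was 0.0485.

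The co-culture arrays of several of these genes were nearly the same. The SD of the 3 co-culture arrays was 0.0065 for Ntrk2 and 6.4e-04 for Sort1, and replicates 1 and 2 had equal values for both genes. Among the 13012 tested genes, 11.6% had exactly equal deposited values, with no tolerance, on at least 2 co-culture arrays, beside 5.66% for precursors and 2.54% for neurons. The last step of RMA, a median polish over the arrays, can give several arrays the same value. Its part in the equal values was not tested. With the spread taken from the separate cultures alone, an alternative chosen after seeing the data, the calls of Ntrk2 in the 3 comparisons held, while Ntrk3 against precursors (adjusted p = 0.0960), Ngfr against precursors in neurons (0.0567) and Ngfr in the co-culture against neurons (0.0626) did not pass.

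Each co-culture level was also set against the level that mixing of the separate cultures would give. The neuron culture was estimated to give 16.6% ± 1.09 (SD, n = 3) of the co-culture RNA. This used 213 genes at least 4-fold different between neurons and precursors, without the 5 genes themselves. The share was 22.6% ± 1.19 from the 104 genes higher in neurons and 10.5% ± 2.21 from the 109 genes higher in precursors. It places the co-culture between the separate cultures and is not a share of neuron cells, as precursor arrays also held neuron markers. The 11 cortical projection neuron markers summed to 18274.5 to 18971.4 on precursor arrays and 24226.1 to 25081.4 on neuron arrays (linear scale). Ntrk2 lay 0.33 above the predicted 9.40 on the log2 scale (SE 0.051, adjusted p = 0.0342, limma), where 0.392% of tested genes were called (0.361% higher, 0.0307% lower). The departure was positive under all 22 alternatives, but it was called under 8 of them. Adjusted p was 0.0813 with the replicate block, 0.184 with the spread of the separate cultures, and 0.478 at the share from genes higher in neurons, where the departure was 0.16. Leaving out any 1 array other than precursor replicate 2 also ended the call, with adjusted p from 0.0552 to 0.270.

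On the linear scale, the Ntrk2 level of the co-culture arrays corresponded to 29.1%, 29.1% and 28.6% of the way from precursors to neurons. For Ntrk3 it was 18.9%, 29.5% and 20.8%. For Bdnf it was 55.8%, 63.9% and 59.5%, and for Sort1 55.7%, 55.7% and 55.0%. For Ngfr it was -1.90%, -13.2% and 20.6%. Bdnf, Sort1 and Ngfr differ by 1.13-fold to 1.35-fold between the separate cultures, beside 4.23-fold for Ntrk2. Ntrk3 departed from the predicted mixture by 0.054 (95% interval -0.047 to 0.15), Bdnf by 0.19 (0.033 to 0.36), Ngfr by -0.051 (-0.27 to 0.17) and Sort1 by 0.069 (-0.013 to 0.15). None of these passed in limma (adjusted p = 0.778, 0.575, 0.911 and 0.666), and Bdnf alone had an unadjusted p under 0.05 (0.0230).

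**Figure D3:**
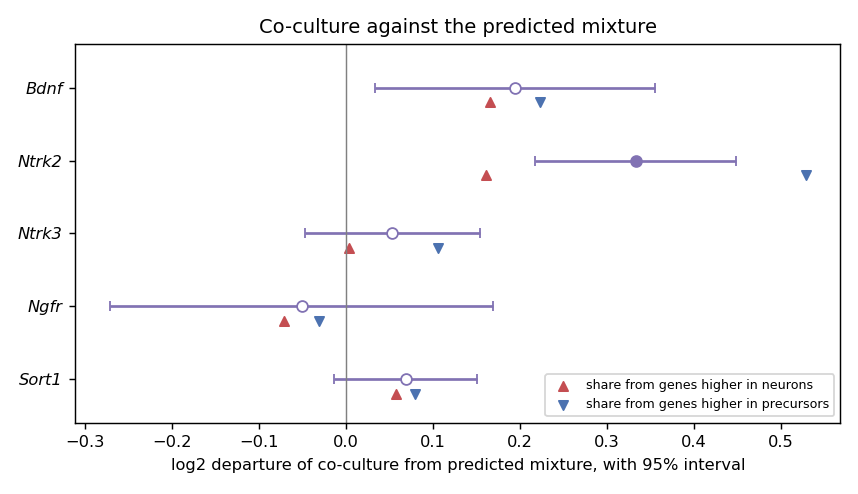
Log2 departure of the co-culture level from the predicted mixture (horizontal axis), with its 95% interval, for the 5 genes, where the filled point has an adjusted p under 0.05, and triangles give the departure at the share from genes higher in neurons alone or in precursors alone. Ntrk2 moves from 0.33 to 0.16 with the neuron gene share, while the Ntrk3, Ngfr and Sort1 intervals span 0.

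The relatives of sortilin did not move as one. Sorcs2, a partner of p75 in binding BDNF precursors, was at 8.65 ± 0.068 (SD, n = 3) in neurons, at 7.46 ± 0.071 in precursors and at 7.92 ± 0.038 in the co-culture. It was higher in neurons by 1.20 (adjusted p = 5.0e-08, limma) and in the co-culture than in precursors by 0.47 (adjusted p = 4.91e-04). Sorcs1, a sorting receptor, went the other way, with 7.87 ± 0.19 for neurons and 9.36 ± 0.19 for precursors, or -1.49 (adjusted p = 3.64e-06). Both held under all 18 alternatives. Sorl1, a sorting receptor of endosomes, was higher by 0.25 in neurons and by 0.32 in the co-culture than in precursors (adjusted p = 0.0228 and 0.0413), but adjusted p reached 0.0734 and 0.169 when 1 array was left out. Sorcs3 was at 9.17, 9.26 and 9.33 in neurons, precursors and co-culture, and only its higher level in the co-culture than in neurons was called (0.16, adjusted p = 0.0348, and 0.282 with cyclic loess).

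The list of receptor partners, which takes in the whole Slitrk family, was mostly higher in neurons. Against precursors, neurons had 8 of 9 tested genes higher and 1 lower, beside 28% and 35.2% of all tested genes (median 1.26, beside -0.020). The co-culture had 7 higher and 0 lower, beside 8.22% and 0.2% of all tested genes (median 0.42, beside 0.020). Slitrk5, a membrane protein that binds TrkB, was higher in neurons by 1.39 and in the co-culture by 0.49. Its relatives, listed as family members, were higher too, Slitrk4 by 2.20 and 0.84 and Slitrk3 by 2.04 and 0.61. Lingo1, a part of the p75 receptor complex, was higher in neurons by 1.60 (adjusted p = 8.42e-08, limma) and in the co-culture by 0.42.

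Of 8 tested genes that cut neurotrophin precursors or limit that cut, 5 were higher and 1 lower in neurons (median 0.65). Over all tested genes 28% were higher and 35.2% lower. In the co-culture 2 were higher than in precursors, beside 8.22% of all tested genes. Pcsk1, a convertase of the secretory granule, was at 8.10 ± 0.099 in neurons, at 6.33 ± 0.064 in precursors and at 7.22 ± 0.13 in co-culture, and was 3.41-fold higher in neurons than in precursors (adjusted p = 3.37e-08, limma). Cpe, a carboxypeptidase of the same granules, was higher in neurons by 0.74 and in the co-culture by 0.25. Pcsk6, another convertase, was higher in neurons by 0.70, and Serpini1, an inhibitor of the protease tPA, by 0.67. Of 12 genes of dense core vesicles and ligand transport 10 were higher and 1 lower in neurons (median 0.72). In the co-culture 7 were higher, and the shares over all tested genes are those given above. Syt4, a synaptotagmin of BDNF vesicles, was higher by 1.70 and 0.77 in these comparisons, Cadps2, which primes dense core vesicles, by 1.39 and 0.60, and the granin Chgb by 1.32 and 0.47.

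**Figure D4:**
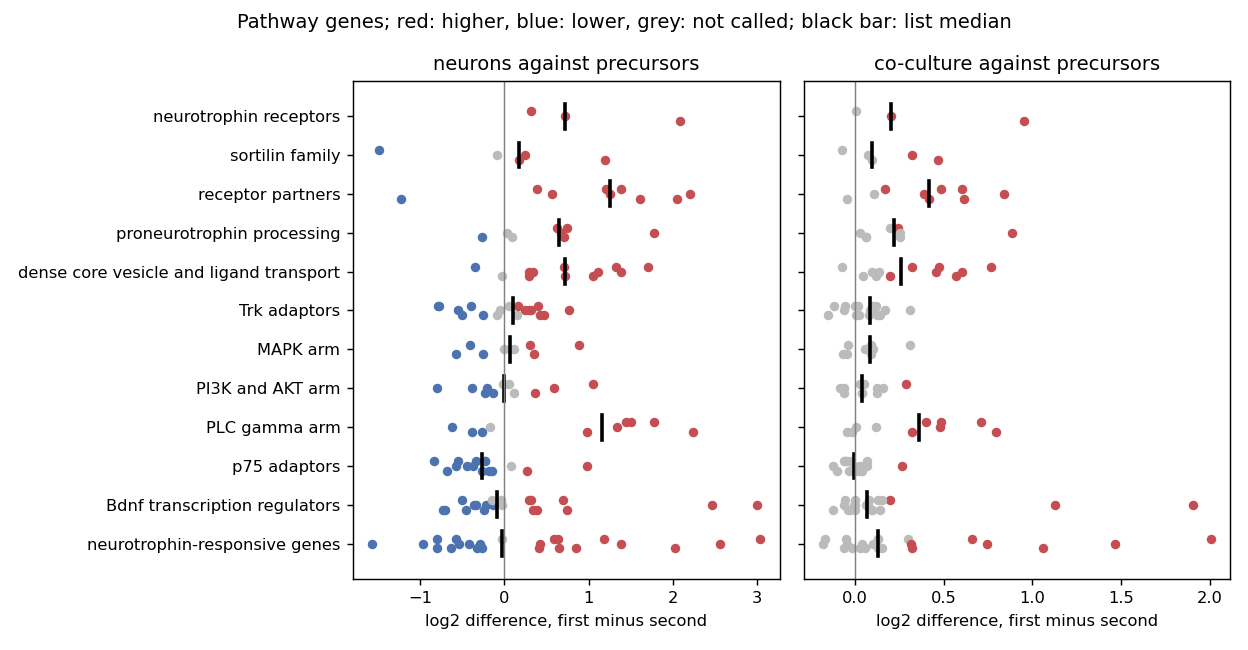
Log2 difference (horizontal axis) of each tested gene of 12 pathway lists (rows), for neurons against precursors (left) and co-culture against precursors (right), with red for higher, blue for lower, grey for not called and a black bar for the list median. The p75 adaptors are mostly blue on the left (12 of 15 lower, beside 35.2% of all tested genes). The right panel has 0 blue points, where 0.2% of all tested genes were lower.

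Adaptors couple Trk receptors to their pathways. Against precursors, neurons had 8 of 18 tested genes higher and 6 lower, beside 28% and 35.2% of all tested genes (median 0.10). In the co-culture against precursors 0 were called (limma), beside 8.42% of all tested genes, and 5 had an unadjusted p under 0.05. Alternatives were run only for the adaptors named in this paragraph. Of these, Gab2 was called in 3 of 18, Shc2 and Shc3 in 1 of 18 each and Shc1 in 1 of 17. Among the Shc adaptors, which bind the activated receptor, Shc1 was lower in neurons while Shc2 and Shc3 were higher. Shc1, Shc3, Gab2 and Frs3 were singled out after their values were seen. Shc1 was at 7.34, 7.23 and 7.31 in neurons and at 7.81, 7.73 and 7.84 in precursors, a log2 difference of -0.50 (SE 0.047, adjusted p = 8.58e-06). Shc2 was at 8.33, 8.57 and 8.33 in neurons and at 7.69, 7.40 and 7.84 in precursors (0.77, SE 0.11, adjusted p = 1.23e-04), and Shc3 at 11.02, 10.93 and 10.95 in neurons and at 10.60, 10.54 and 10.58 in precursors (0.40, SE 0.042, adjusted p = 1.94e-05). Neurons and precursors overlapped in none of these 3 genes, and 66.4% of all tested genes did not overlap either. Of the docking proteins of the Gab family, Gab1 was lower by -0.79 (adjusted p = 7.21e-06) and Gab2 was higher by 0.47 (adjusted p = 1.13e-05) in neurons. Frs3 was higher by 0.43, and Crkl and Nck1 were lower by -0.78 and -0.55. All of these calls held under every alternative that tested the gene.

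**Figure D5:**
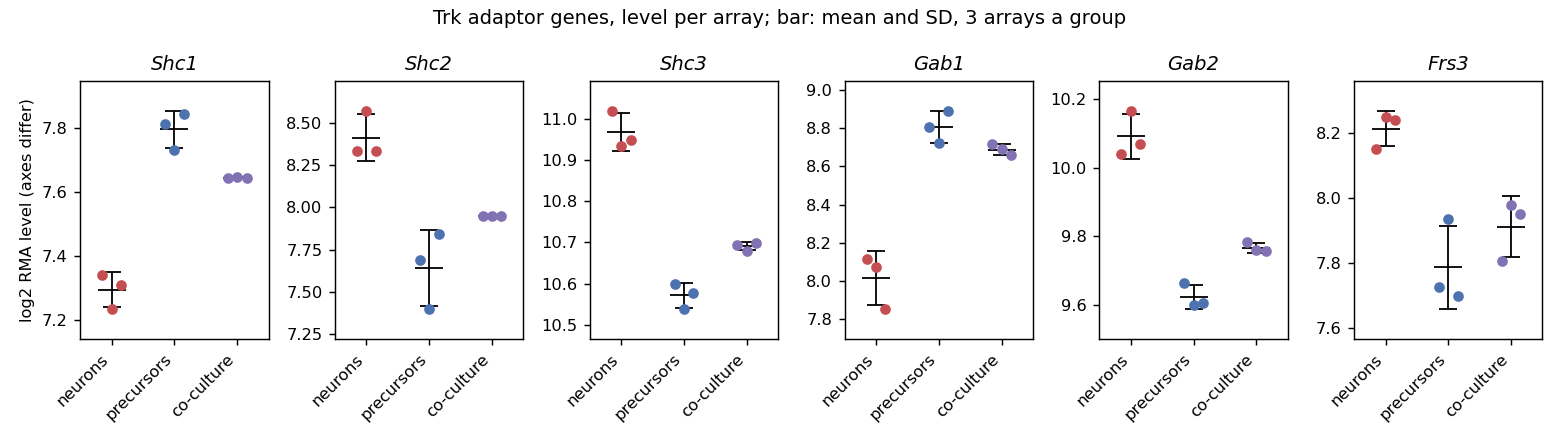
Log2 RMA level (vertical axis, a separate scale for each gene) of Shc1, Shc2, Shc3, Gab1, Gab2 and Frs3 on each array, with group mean and SD as bars. Shc1 and Gab1 are lowest in neurons, and the other 4 genes are highest there.

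For the 3 arms below the Trk receptors, the shares over all tested genes were 28% higher and 35.2% lower in neurons. In the co-culture against precursors, 8.22% of all tested genes were higher. Of these arms, the phospholipase C gamma arm had the largest median. Of its 10 tested genes 6 were higher and 3 lower in neurons (median 1.16), and 6 were higher in the co-culture than in precursors (median 0.36). The higher genes were kinases: protein kinase C beta, Prkcb, by 2.24 (adjusted p = 6.37e-10, limma), Prkca by 1.50, Prkce by 1.44 and the calcium and calmodulin dependent kinases Camk2b by 1.77 and Camk2a by 1.33. The lower ones, named after their values were seen, were Camk2d, Prkcd and the phospholipase Plcg1 itself. The MAP kinase arm had 3 higher and 3 lower of 9 (median 0.072), with the nuclear kinase Rps6ka5 higher by 0.88 and Nras lower by -0.57. The PI3 kinase and AKT arm had 3 higher and 5 lower of 12 (median -0.0100), with the regulatory subunits Pik3r1 higher by 1.06 and Pik3r3 lower by -0.79, and Akt2 lower by -0.38. In the co-culture against precursors, 0 of 9 and 1 of 12 genes of these last 2 arms were called in limma, the 1 being Pik3r1 (0.29, adjusted p = 0.00288). Of the 9 MAP kinase genes 1 had an unadjusted p under 0.05, Rps6ka5 (0.31, adjusted p = 0.0587). It was called with the replicate block, in which numbers pair precursor and co-culture arrays (adjusted p = 0.0227), and under 5 of 18 alternatives in all.

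Genes that act with p75 were mostly lower in neurons. Of 15 tested 12 were lower and 2 higher, beside 35.2% and 28% of all tested genes (median -0.26). Adam17, which cleaves p75, was lower by -0.83, and the adaptors Traf4 and Traf6 by -0.68 and -0.57. Mapk10, a neuronal JNK kinase, was higher by 0.98 in neurons, and by 0.27 in the co-culture than in precursors (adjusted p = 0.0205, and up to 0.0888 under the alternatives).

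Of 20 tested regulators of Bdnf transcription, 8 were higher and 9 lower in neurons, beside 28% and 35.2% of all tested genes (median -0.089). Npas4, an activity-dependent transcription factor that binds Bdnf promoters, was at 10.35 ± 0.11 in neurons, at 7.36 ± 0.090 in precursors and at 9.27 ± 0.0034 in co-culture, and was higher in neurons by 2.99 (adjusted p = 1.12e-09, limma). Mef2c was higher by 2.46 and the CREB coactivator Crtc1 by 0.75, while the repressor Rest was lower by -0.72. In the co-culture against precursors 3 of 20 were higher (limma), beside 8.22% of all tested genes. They were Npas4 by 1.91, Mef2c by 1.13 and Mef2d by 0.20, the last with adjusted p = 0.0194 and up to 0.0969 under the alternatives. Genes known to respond to neurotrophins had 11 higher and 11 lower of 23 in neurons, beside 28% and 35.2% of all tested genes. Many of them also respond to other stimuli. In the co-culture 7 were higher and 0 lower than in precursors, beside 8.22% and 0.2% of all tested genes (median 0.13). The orphan nuclear receptors Nr4a3, Nr4a2 and Nr4a1 were higher in neurons by 3.04, 2.55 and 2.03 and in the co-culture by 2.01, 1.47 and 1.06. Dusp4, a phosphatase of MAP kinases, was lower in neurons by -1.56.

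Genes with the most similar profile over the 9 arrays were taken by Pearson's r, as a description, since the 3 groups set most of each profile. Those of Ntrk2 were Bend6, Cplx1 and Dok5 (r = 0.999, 0.998 and 0.998), and 1415 of 13011 genes had r above 0.95. Those of Ntrk3 were D430041D05Rik, Wipf3 and Cadps (0.997 each), with 1599 genes above 0.95. Those of Sort1 were Nmt2, Zcchc12 and Otud7a (0.987, 0.984 and 0.984), with 228 genes above 0.95. The profiles of Bdnf and Ngfr were shared by few genes. For Bdnf they were Il17d, Stmn3 and Itga8 (0.956, 0.953 and 0.952), the 3 genes above 0.95, and for Ngfr Gm5476, Kcnk4 and Mtfp1 (0.989, 0.967 and 0.964), of 8 genes above 0.95.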

How the data were processed

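The authors deposited 1 log2 value for each probe set and array. RMA and the R package oligo are listed in the submitters' processing notes, and their versions and a genome build are not given in the sources used here. Each array took 100 ng of total RNA, per the labels' protocols. Scanner files were not analysed here. Array medians lay between 6.75 and 6.79, and arrays have no read depth, so their number limits the precision.

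The platform annotation gave 23521 of the 41345 probe sets a single symbol, and these were used, while 1814 had several symbols and 16010 had none. Genes above the array median in at least 3 arrays were tested. limma 3.58.1 (R 4.3.3; lmFit, eBayes) gave two-sided p-values adjusted over all tested genes. The mixture test uses a contrast specific to each gene and leaves out the error of the share. Alternatives changed the filter, normalization, weights, prior variance, probe set, share and arrays.

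The members and the 13 pathway and 11 marker lists were chosen with earlier results of these data known. Of 180 pathway entries 156 had a probe set and 144 were tested. Candidates to be named were all 5 members, all members of pathway lists of up to 5 and the 3 genes most like each member. From each longer pathway list came up to 4 called genes with the largest difference per comparison (neurons or co-culture against precursors). Each marker list gave up to 3 brightest markers. The text prints only part of these candidates. It also names genes outside this rule, among them Shc1, Shc3, Gab2, Frs3, Camk2d, Prkcd, Plcg1 and several markers.

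Precursor and co-culture arrays of 1 number departed from their group means together (r = 0.34, 0.30 and 0.16 over 13012 genes for numbers 1 to 3). These numbers may thus pair the samples, but arrays of different numbers were not compared. The main model leaves pairing out, and the replicate block is its alternative. Neuron arrays were mixed, with 0.0043, 0.13 and -0.15 with precursors and -0.0051, 0.27 and 0.17 with the co-culture.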

Additional observations from a re-analysis of the deposited data

How the results depend on the processing

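Of 368 alternative values for 20 results on the 5 genes, 324 kept their side of the threshold, 34 lost a call, 7 gained one and 3 uncalled ones changed sign and moved by more than the replicate spread. Of the 324, 3 uncalled values near 0 also changed sign: Ngfr in the co-culture against precursors was -0.073 when precursor replicate 2 was left out and -0.026 when co-culture replicate 3 was, and Ngfr against the mixture was 0.0062 without precursor replicate 1. Except where a sentence says otherwise, the cause was not tested. With 1 array left out, the log2 difference ranged from 0.24 to 0.30 for Bdnf in the co-culture against precursors, from -0.25 to -0.089 for Bdnf against neurons, from 0.18 to 0.24 for Ntrk3 against precursors, from 0.23 to 0.43 for Ngfr in neurons against precursors and from -0.42 to -0.22 for Ngfr in the co-culture against neurons. The Ntrk2 departure from the mixture ranged from 0.30 to 0.35. In these fits all genes called in the co-culture against precursors numbered 686 to 1163, in place of 1095, and 720 with the spread of the separate cultures. That spread left the values of Ntrk2 against the mixture (0.33), Ntrk3 against precursors (0.20), Ngfr in neurons (0.31) and Ngfr against neurons (-0.30) as they were and ended their calls, as it changes only the error. No filter, which adjusts over more genes, did so for Ntrk2 against the mixture (0.33), Ntrk3 (0.20) and Ngfr against neurons (-0.30). Cyclic loess gave Bdnf against precursors a call (0.31) and Sort1 against neurons one (-0.17), and ended that of Ntrk2 against the mixture (0.30). Array weights gave calls for Bdnf against precursors (0.29) and neurons (-0.22), and limma's trend one for Sort1 against neurons (-0.075). The replicate block ended the call of Ntrk2 against the mixture (0.33, adjusted p = 0.0813) and changed no other call of the 5 genes. The spread of the separate cultures and the shares from genes of 1 direction were alternatives chosen after seeing the data. The Ntrk2 departure was 0.058 with the share raised by 0.1, where that of Ntrk3 was -0.029, and 0.16 at the share from genes higher in neurons. Averaging probe sets gave Sort1 0.072 in neurons against precursors, -0.010 in the co-culture against precursors and -0.022 against the mixture. Bdnf was not run with other filters, being below each, and Ngfr was untested at the 75th percentile. The calls against the mixture numbered 51 over all genes, 31 with the block, 19 without the filter, 41 with cyclic loess, 108 with array weights, 85 with trend, 82 at the 75th percentile, 590 and 3 at a share lower and higher by 0.1, 9 and 332 at the shares from neuron and precursor genes, 10 with the spread of the separate cultures and 9 to 50 with 1 array left out. The dim level of Bdnf can limit its fold, which was not tested, and 3 arrays a group limit the precision of all values.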
